A study of Homo sapiens with 6 samples.

Results

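ICAM1, ICAM4 and IL1A are 3 of the 937 genes in the deposited table of a study of albiflorin (ALB), a monoterpene from peony root, in LX-2, a human line derived from hepatic stellate cells. They were selected on their counts and FPKM in this table, the adhesion molecules ICAM1 and ICAM4 as higher with ALB and the alarmin IL1A as lower. Their difference between the groups is therefore given as a description, with no test. Both groups of cells received TGF-β1 at 20 ng/mL, and after 24 h they were cultured for a further 24 h in plain medium (TGF-β1 group) or with ALB (ALB group), 3 libraries each. The labels name the TGF-β1 group a control, although the submitters' design gives it TGF-β1, and they give the cell type as hepatocyte although the line is stellate. Every library came from the same established line, so the cells of other types in a liver were not part of the culture. The ALB dose of the sequenced cells is not given in the sources used here, and neither is whether the 3 libraries of a group came from separate cultures, so their spread may be technical. A group that never received TGF-β1 was not analysed here.

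Intercellular adhesion molecules are membrane proteins of the immunoglobulin superfamily that bind integrins on leukocytes. ICAM1 holds and guides leukocytes on endothelium and on stromal cells, including activated stellate cells, by binding the leukocyte integrins LFA-1 and Mac-1. ICAM4 is the Landsteiner-Wiener blood group protein of red cells and binds several integrins, and ICAM5 is known from the dendrites of forebrain neurons. IL1A encodes interleukin-1α, an alarmin that lacks a signal peptide, is active already as a precursor and is set free when cells are damaged. Bound to its receptor it signals through MYD88 and IRAK kinases to NF-κB, which is known to raise ICAM1 in many cell types.

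ICAM1 and ICAM4 are neighbours on the plus strand of chromosome 19 (GRCh38, GENCODE 29). ICAM1 runs from 10270835 to 10286615 and ICAM4 from 10286967 to 10288522, so that 351 bases separate them. ICAM5, from 10289981 to 10296778 on the same strand, starts 1458 bases after the end of ICAM4. An antisense gene on the minus strand, ICAM4-AS1 (10285801 to 10289019), covers the end of ICAM1 and the whole of ICAM4, and another, AC011511.2 (10252268 to 10285108), overlaps most of ICAM1. The sources used here do not say whether reads were counted by strand. Reads of ICAM4-AS1, or of transcripts that run on past the end of ICAM1, thus cannot be told apart from those of ICAM4. Likewise, reads of either antisense gene cannot be told apart from those of ICAM1 where they overlap it. IL1A lies on the minus strand of chromosome 2, from 112773915 to 112784590, and 45160 bases part it from IL1B.

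The 250 bases before each RefSeq start (GRCh38.p14) are shown because ICAM1 and ICAM4 went the same way and IL1A the other. The windows are chr19:10270870-10271119 for ICAM1, chr19:10286705-10286954 for ICAM4 and chr2:112784494-112784743 on the minus strand for IL1A. Capitals mark matches, on either strand, to the motifs named after the sequences.
ICAM1: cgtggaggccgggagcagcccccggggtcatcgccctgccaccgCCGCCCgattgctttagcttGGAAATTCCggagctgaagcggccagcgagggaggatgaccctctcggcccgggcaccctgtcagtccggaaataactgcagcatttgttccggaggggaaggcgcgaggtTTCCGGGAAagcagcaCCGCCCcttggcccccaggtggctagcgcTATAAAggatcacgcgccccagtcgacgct
ICAM4: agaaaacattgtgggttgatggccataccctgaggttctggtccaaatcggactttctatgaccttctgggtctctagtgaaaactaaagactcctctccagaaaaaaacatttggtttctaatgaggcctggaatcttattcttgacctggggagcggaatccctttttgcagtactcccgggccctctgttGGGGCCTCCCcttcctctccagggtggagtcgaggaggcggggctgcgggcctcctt
IL1A: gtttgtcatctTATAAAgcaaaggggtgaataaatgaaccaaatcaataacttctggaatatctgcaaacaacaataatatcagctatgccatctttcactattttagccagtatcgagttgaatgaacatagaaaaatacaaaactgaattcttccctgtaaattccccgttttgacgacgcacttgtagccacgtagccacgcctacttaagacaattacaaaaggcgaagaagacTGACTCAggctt
In ICAM1 the capitals are, in order, an SP1 motif (GGGCGG, read on the other strand), a form of the NF-κB motif (GGAANTTCC), a GAS motif of STAT factors (TTCNNNGAA), another SP1 motif and a TATA box (TATAAA). The GGAANTTCC match lies 186 to 178 bases before the start, the GAS match 75 to 67 bases and the TATA box 30 to 25 bases before it. Of 35116 RefSeq windows of the same length, 0.826% hold GGAANTTCC, 6.57% the GAS motif, 10.7% TATAAA and 42.6% GGGCGG. The form GGAANTTCC was added after the sequences were seen. In ICAM4 the capitals mark the NF-κB consensus of 10 bases, which 9.96% of windows hold, at 57 to 48 bases before the start. The ICAM1 window held no match to this consensus. In IL1A they mark TATAAA far from the start, at 239 to 234 bases, and an AP-1 motif (TGANTCA, in 6.57% of windows) at 12 to 6 bases. The motifs CAGAC (SMAD, in 38.0% of windows) and GGAATG (TEAD, in 11.9%) were searched too and these letters were in none of the 3 windows. The window of ICAM5, which was also higher with ALB, was searched as well. Of all these motifs it matched only GGGCGG, and neither NF-κB form. Whether a motif goes with the direction of change was not tested. The ICAM1 window is rich in G and C (66.0%, with 23 CG pairs), the ICAM4 window holds 52.4% and 6 such pairs, and the IL1A window 37.6% and 7, against medians of 58.0% and 11 over all windows. The ICAM4 window begins 89 bases after the end of ICAM1, so it lies wholly between the 2 genes. Starts differ between annotations: GENCODE begins ICAM1 285 bases and IL1A 97 bases upstream of the RefSeq start used here, and ICAM4 12 bases downstream of it. IL1A has 2 RefSeq starts, and the window before only 1 of them is shown.

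The deposited table gives a count of fragments and an FPKM value (fragments per kilobase of transcript at a common library depth, so a level per length) for each gene and library. It holds only genes that the authors had called as changed on these libraries, so its column sums, 1820768 to 2020318 counts in T libraries (TGF-β1 alone) and 1135478 to 1220505 in A libraries (ALB), are not depths. Relative depths were taken from the ratio of count to FPKM and ranged from 0.920 to 1.04 for TGF-β1 alone and from 0.975 to 1.13 for ALB, where the geometric mean is 1. In edgeR's quasi-likelihood test at these depths, adjusted by Benjamini-Hochberg over the table at a threshold of 0.05, 99.4% of the table's genes passed, 42.5% as higher and 56.9% as lower with ALB. A call in this table therefore says nothing particular about a gene. The median log2 fold change over the table, ALB over TGF-β1, was -0.97. The single libraries are called T1 to T3 and A1 to A3, after their columns.

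ICAM1 was abundant before ALB and more so with it. Its FPKM was 55.4, 53.3 and 48.3 in T1, T2 and T3, and 105, 203 and 139 in A1, A2 and A3. The groups did not overlap, as was the case for 96.8% of the table's genes, and the lowest ALB library, A1, stood at 2.02 times the TGF-β1 mean and the highest, A2, at 3.89 times. The mean went from 52.3 ± 3.65 to 149 ± 49.8 FPKM (SD, n = 3 libraries per group). On the counts the log2 fold change was 1.51 (standard error 0.24), a level 2.86-fold higher with ALB. In bulk RNA more cells with a transcript and more of it per cell cannot be told apart. By mean FPKM ICAM1 stood 58th of the 937 genes in the TGF-β1 group and 9th in the ALB group. Its counts, from 4807 in T3 to 21429 in A2, leave little counting error, so the spread of the ALB group lies between libraries.

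ICAM4 was close to the floor without ALB and had the larger change of the 2 adhesion genes. T1, T2 and T3 held 18, 17 and 19 counts of it, and A1, A2 and A3 held 121, 407 and 352. The 3 low counts are alike, but each is uncertain: their exact Poisson 95% intervals, which cover counting error only, lie between 9.90 and 29.7 counts. In FPKM the values were 0.366, 0.356 and 0.402 without ALB and 2.46, 8.31 and 6.22 with it. The mean went from 0.374 ± 0.0241 to 5.66 ± 2.96 FPKM (SD, n = 3). The log2 fold change was 3.93 (standard error 0.47), which is 15.3-fold, with 11.1-fold and 21.1-fold at 1 standard error below and above. By fold change ICAM4 stood 9th from the top of the table. The ALB libraries differed among themselves more than they did for ICAM1, A1 standing at 6.58 times the TGF-β1 mean and A2 at 22.2 times.

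IL1A went the other way and by less. Its FPKM was 14.2, 15.8 and 12.2 in T1, T2 and T3 and 7.86, 9.80 and 4.29 in A1, A2 and A3. The groups did not overlap, although only a small gap parts T3, the lowest TGF-β1 library, from A2. The mean went from 14.1 ± 1.83 to 7.32 ± 2.80 FPKM (SD, n = 3). The log2 fold change was -0.94 (standard error 0.28), a level 1.92-fold lower with ALB. That is near the median of all genes in the table, but the median of its lower genes was -1.39. IL1A was thus close to the edge of the table: the study kept genes with a fold change over 2 at its own scaling, and at the depths used here IL1A is among 91 genes whose change was under that size. TMM factors of this table rest on the premise that most genes do not change. With them the log2 fold change of IL1A was -0.38 (standard error 0.25), and with DESeq2's own size factors -0.26 (standard error 0.29). The same scalings moved the median of the table up by 0.61 and 0.71 on the log2 scale, and ICAM1 to 2.10 and 2.21 and ICAM4 to 4.52 and 4.64. Since the table holds called genes only, the assumption behind these scalings is not met here.

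**Figure D1:**
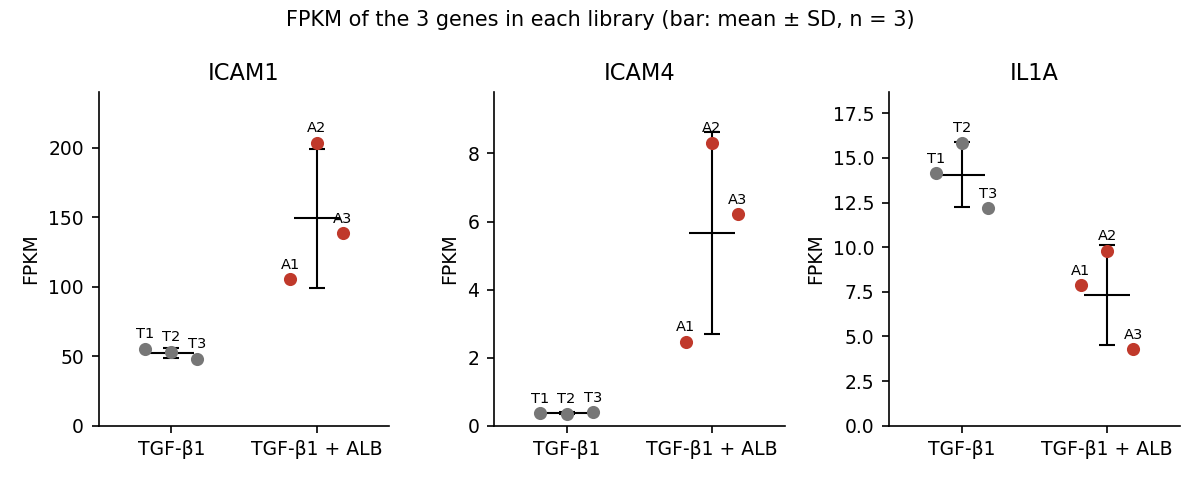
FPKM of ICAM1, ICAM4 and IL1A in each library (points, T1 to T3 with TGF-β1 alone and A1 to A3 with TGF-β1 and ALB), with group mean and SD (n = 3) as bars; each panel has its own linear axis from 0. The groups overlap for none of the 3 genes, and they did not overlap for 96.8% of the table's genes. A2 is the highest ALB library in every panel, as it was at equal depth for 47.9% of the table's genes.

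The ALB libraries were not alike for these genes. The coefficient of variation of FPKM in the ALB group was 33.4% for ICAM1, 52.3% for ICAM4 and 38.2% for IL1A, against a median of 23.6% over the table. In the TGF-β1 group it was 6.98%, 6.44% and 13.01%, against a median of 16.7%. A2 had the highest level of its group for all 3 genes, at equal depth, and so it had for 47.9% of the genes in the table and for 59% of those higher with ALB. A1 had the lowest level of ICAM1 and ICAM4, as it had for 34.25% of the table's higher genes. A3 had the lowest level of IL1A, as it had for 41.2% of the lower genes. Without A2 the log2 fold changes were 1.23 for ICAM1, 3.55 for ICAM4 and -1.21 for IL1A, and without A3 that of IL1A was -0.67.

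The order of the genes by FPKM, which is a level per length and so can be compared between genes, changed with ALB. Without it the order was ICAM1, IL1A, ICAM5 and ICAM4, and no library of any of these genes reached into the range of the next. With ALB the order of the means was ICAM1, IL1A, ICAM4 and ICAM5. The ranges of IL1A (4.29 to 9.80 FPKM) and ICAM4 (2.46 to 8.31 FPKM) then overlapped, and so did those of ICAM4 and ICAM5 (2.06 to 3.18 FPKM). The lengths that counts and FPKM imply are 0.46 of that of ICAM1 for ICAM4 and 0.68 for IL1A, and the longest annotated transcripts, with 3252, 1390 and 2124 bases, give 0.43 and 0.65.

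Ratios between genes of 1 library need no depth. ICAM4 stood at 0.662, 0.667 and 0.832 FPKM per 100 FPKM of ICAM1 in T1, T2 and T3, and at 2.34, 4.09 and 4.49 in A1, A2 and A3. The groups did not overlap, and the mean ratio went from 0.720 ± 0.0970 to 3.64 ± 1.14 (SD, n = 3), 5.05 times as high. For ICAM5, the next gene downstream, the ratio was 1.73, 2.33 and 1.81 per 100 FPKM of ICAM1 without ALB and 1.95, 1.56 and 1.64 with it. These ranges overlap, with means of 1.95 ± 0.324 and 1.72 ± 0.206. ICAM5 thus kept to ICAM1 within the spread of the libraries, whereas ICAM4, which lies between them, did not. IL1A went from 25.6, 29.7 and 25.3 FPKM per 100 FPKM of ICAM1 to 7.46, 4.82 and 3.10, a mean ratio 0.191 times as high. All these ratios describe the contrast by which the 3 genes were chosen.

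**Figure D2:**
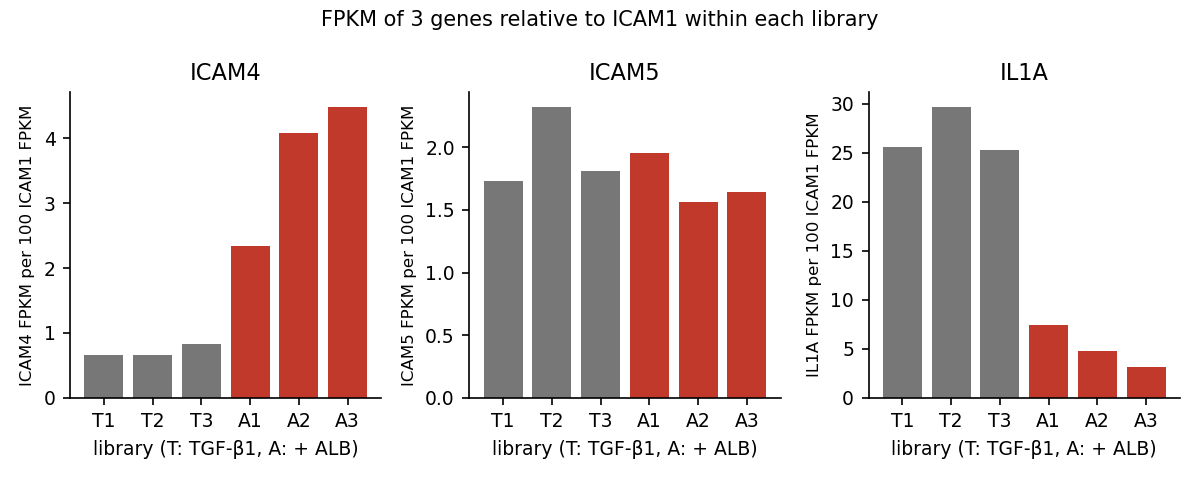
FPKM of ICAM4, ICAM5 and IL1A per 100 FPKM of ICAM1 in each library (bars, axes from 0; grey for TGF-β1 alone, red with ALB). ICAM4 is at most 0.832 without ALB and at least 2.34 with it, IL1A goes the other way, and the ICAM5 ratios of the groups overlap.

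The region around ICAM1 held other genes of the table. Within 1 Mb of ICAM1 GENCODE 29 lists 59 protein-coding genes. Of the 57 other than ICAM1 and ICAM4, which were chosen as changed neighbours, 4 were in the table, 3 higher and 1 lower with ALB by edgeR's test. That is 7.02% of them, where 3.89% of all coding genes were in the table, a difference that was not tested. ICAM5 went from 1.02 ± 0.192 to 2.50 ± 0.591 FPKM, with a log2 change of 1.26 (standard error 0.26). ZGLP1, which encodes a GATA-like zinc finger protein and lies on the minus strand 18.2 kb from ICAM1, was higher by 1.30 on the log2 scale (standard error 0.33), at 0.670 ± 0.146 FPKM without ALB and 1.85 ± 0.184 with it. ZNF177, a zinc finger gene 888 kb away, was higher by 1.13 on the log2 scale (standard error 0.48). AP1M2, an adaptor subunit of epithelial cells 286 kb away, was the lower gene, with a log2 change of -1.65 (standard error 0.27). ICAM3, 36997 bases beyond ICAM5 on the minus strand, was not among the genes of the table. Of the 27 coding genes other than IL1A within 1 Mb of it, 1 was in the table, or 3.70%. It was RABL2A, at 843 kb, with a log2 change of 1.12 (standard error 0.24). IL1B, the neighbour and relative of IL1A, was not in the table, so whether it changed cannot be told.

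**Figure D3:**
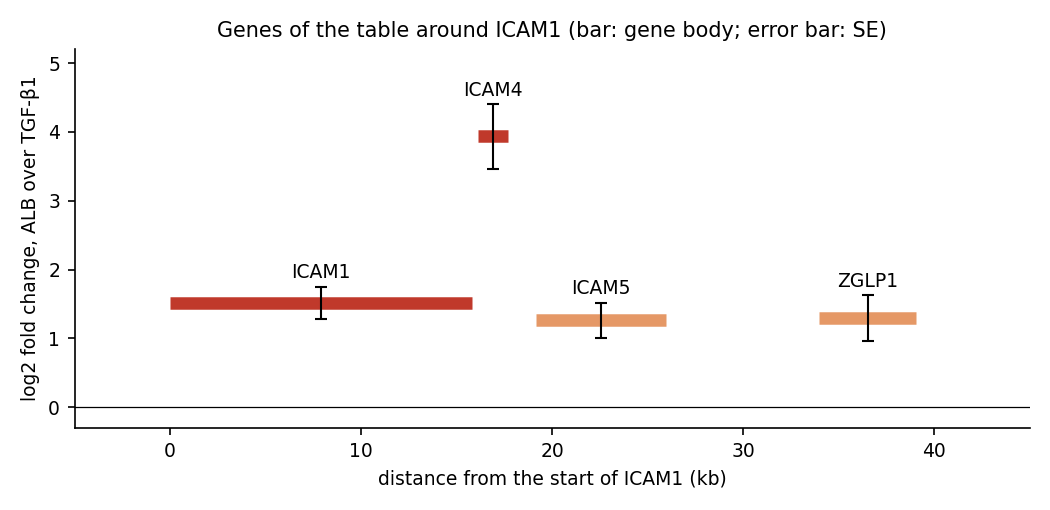
Log2 fold change, ALB over TGF-β1, of the table's genes within 60 kb of ICAM1, plotted against the distance in kb from the start of ICAM1 (horizontal bars: gene bodies, red for ICAM1 and ICAM4, orange for other genes; error bars: standard error). ICAM4, at 3.93, stands above ICAM1, ICAM5 and ZGLP1, which lie between 1.26 and 1.51.

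The table held 3.89% of all protein-coding genes, and the shares of the lists below are to be read against that. Of 11 integrin chains listed as partners of ICAM proteins 1 was in it, ITGAM, the α chain of Mac-1, higher at 0.168 ± 0.0287 FPKM without ALB and 0.460 ± 0.179 with it. These levels are near the floor. ITGAM is also the only member found of 14 leukocyte markers, a list on which PTPRC, CD14 and CD68 had no value in the table. Of 10 anchors of ICAM1 to the cytoskeleton, such as ezrin and moesin, and of 11 receptors of the IL-1 family, 0 were in the table. Of 19 other adhesion molecules for leukocytes 4 were in it, 3 higher and 1 lower. VCAM1, the ligand of the integrin VLA-4, rose from 0.184 ± 0.00455 to 0.977 ± 0.463 FPKM, with a log2 change of 2.36 (standard error 0.39). AOC3, an amine oxidase that also serves in leukocyte adhesion, and NCAM1, a neural adhesion molecule, rose by 1.53 and 1.65 on the log2 scale (standard error 0.32 and 0.33). AOC3 went from 0.296 ± 0.0688 to 1.05 ± 0.413 FPKM and NCAM1 from 0.0607 ± 0.0152 to 0.200 ± 0.0177 FPKM. Without ALB these 3 higher genes were near the floor too. PECAM1, of endothelial junctions, was the lower member, at 0.199 ± 0.0267 and 0.0832 ± 0.0239 FPKM, a call that was lost with TMM factors (adjusted p = 0.0691, edgeR). These factors moved the table's median up by 0.61 on the log2 scale. A lower call lost under them, here and below, therefore cannot show a weaker change. Of 19 stellate cell markers 5 were in the table, NGFR and PDGFRA higher and COL1A2, COL3A1 and TAGLN lower, and of 10 endothelial markers PECAM1 and TEK, both lower. With TMM factors TAGLN and TEK no longer passed (adjusted p = 0.156 and 0.158, edgeR). Of 13 hepatocyte and 10 erythroid markers 0 were in it, which leaves their level unknown, since a gene outside the table had only not been called, and ANK1, the red cell ankyrin, was the only other gene of 16 of the erythroid membrane in it, lower with a log2 change of -1.06 (standard error 0.39), but with TMM factors at -0.46 and not called (adjusted p = 0.28, edgeR).

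On the side of IL1A, the table held 2 of 23 genes listed for signalling from the IL-1 receptor. Both were higher, where 42.5% of the table's genes were called higher, and from 2 genes no direction of the pathway is read. MAP3K8, a kinase that acts above ERK, rose from 7.08 ± 0.497 to 15.0 ± 2.61 FPKM, and ATF3, a stress-induced transcription factor, from 4.52 ± 1.43 to 15.9 ± 4.92 FPKM. Of 17 genes listed around the processing and release of interleukin-1α, FGF1 alone was in the table. It is a growth factor that, like interleukin-1α, leaves cells without a signal peptide, and it does not itself process interleukin-1α. Its log2 change was -3.63 (standard error 0.34). Of 16 NF-κB subunits and inhibitors, NFKBIZ alone was in it, an atypical IκB protein that IL-1 induces, lower at 50.9 ± 7.43 FPKM without ALB and 27.2 ± 1.72 with it. Its log2 fold change was -0.91, and with TMM factors it was -0.31 and no longer passed (adjusted p = 0.133, edgeR).

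Genes that NF-κB is known to raise went in both directions, as ICAM1 and IL1A did themselves. Besides these, 33 such genes were listed and 7 were in the table, 4 higher and 3 lower, where 42.5% of the table's genes were called higher. Their median log2 fold change, 1.35 against -0.97 over the table, is the value of CXCL3 alone and would turn sign with a change of side of 1 gene, so nothing is read from it. The higher ones were VCAM1, the chemokines CXCL3 (1.35, standard error 0.34) and CCL20 (2.74, standard error 0.62) and the cytokine LIF (1.82, standard error 0.23), all as log2 fold changes. CCL20 went from 0.437 ± 0.255 to 2.85 ± 2.26 FPKM, so like VCAM1 it was near the floor without ALB. The lower ones were IL6, CXCL10 and CCL2, with log2 fold changes of -1.24, -1.68 and -1.03. CXCL10 was near the floor, at 0.927 ± 0.127 FPKM without ALB and 0.282 ± 0.129 with it. With TMM factors the 4 higher genes passed and 1 of the 3 lower ones, CXCL10. Since these factors moved the table's median up by 0.61 on the log2 scale, this split cannot show that the lower changes are weaker. Of 25 other genes that interferon γ is known to raise 2 were in the table, CXCL10 and CXCL11, both lower, whereas ICAM1 was higher. Of 30 other genes listed for senescent cells and their secretome, to which IL1A belongs as an upstream cytokine, 8 were in the table, 4 higher and 4 lower. CDKN1A, an inhibitor of the cell cycle that is not secreted, rose from 35.6 ± 6.05 to 100.7 ± 25.1 FPKM. IGFBP5, a secreted binding protein of insulin-like growth factors, fell from 13.5 ± 2.17 to 1.91 ± 0.470 FPKM. Over all 14 lists 22 of 211 distinct genes other than the 3 were in the table, 12 higher and 10 lower.

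**Figure D4:**
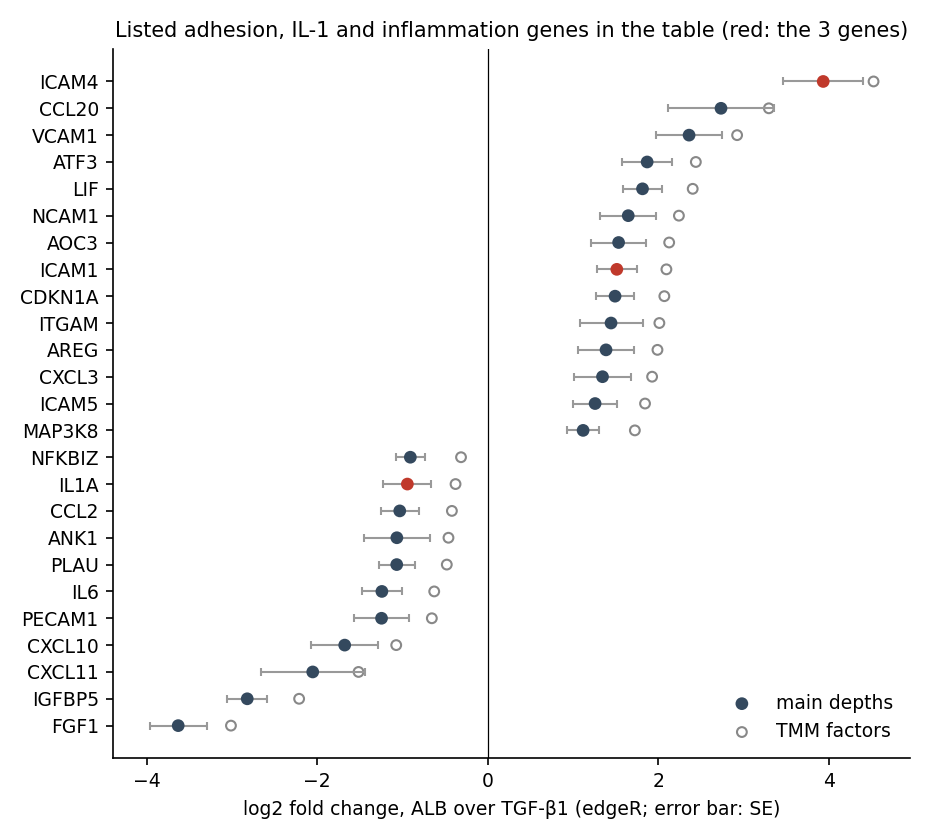
Log2 fold change, ALB over TGF-β1, of every listed gene found in the table (filled points with standard error at the depths used here, red for ICAM1, ICAM4 and IL1A; open points with TMM factors). TMM moves each gene up: ICAM1 goes from 1.51 to 2.10 and IL1A from -0.94 to -0.38.

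The genes whose course over the 6 libraries was most like each of the 3 were found by the root mean square difference of log2 depth-scaled counts, each gene centred on its own mean, among 611 other genes with a symbol and at least 1 FPKM in the higher group. This likeness includes the difference between the groups. The nearest to ICAM1 were AOC3 (0.155), TNFAIP8 (0.164), an inhibitor of apoptosis, HSPA4L (0.177), a heat shock protein, ICAM5 (0.179) and the cytokine IL7 (0.180), where the median over all genes was 1.29. ICAM5 was thus 4th, and ICAM4, at 1.17, was 242nd. The nearest to ICAM4 were CCR4 (0.289), a chemokine receptor, the dehydrogenase DHRS2 (0.513), the complement receptor C5AR1 (0.630), the mTORC1 inhibitor DDIT4 (0.643) and asparagine synthetase ASNS (0.751), against a median of 2.43. CCR4 and C5AR1 were themselves near the floor without ALB, at 0.0765 and 0.152 FPKM. The nearest to IL1A were SAMD9 (0.169), an interferon-induced gene, L1TD1 (0.185), BCLAF1 (0.193), the histone acetyltransferase KAT6B (0.205) and the growth factor FGF2 (0.206), against a median of 0.837. SAMD9 went from 11.99 to 5.41 FPKM and FGF2 from 45.2 to 23.5 FPKM, as means of the 3 libraries.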

How the data were processed

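RNA-seq libraries of poly(A) RNA from LX-2 cells were sequenced by the authors on an Illumina NovaSeq X Plus. For calls they used DESeq2, asking for more than a 2-fold change with P below 0.01. The deposited table gives whole-number counts per gene, as counted by the authors, and FPKM values, as scaled by the authors, for 937 genes. CASAVA 1.4 appears in the submitters' processing notes together with mm9 and mm10, which are mouse builds, but the rows are human genes. For the aligner, the counter and the human build, nothing is given in the sources used here. Columns T1 to T3 were taken as the group that the labels call control and that received TGF-β1, matched to its samples by number alone, on which no mean or fold change depends.

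Relative depths were medians of the count-to-FPKM ratio in 565 genes that had 50 or more counts in each library. Counts of all 937 genes were fitted with edgeR 4.0.16 (R 4.3.3) at these depths. A standard error is the size of the log2 fold change divided by the root of edgeR's F. Alternatives were TMM factors, DESeq2 1.42.0 with its own factors or with these depths, limma 3.58.1 on log2(FPKM + 1) and log2(FPKM + 0.1), filters on low genes, the library number as a block and each library left out. The fits were tested on simulated data in which most genes did not change. That is unlike this table of called genes, so the simulation does not vouch for the fits here.

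The 3 genes and the gene lists were chosen with earlier results of these data known. Named genes are the 3, all listed genes found in the table (a selection is printed), the table's genes within 1 Mb, and for each gene the 5 with the nearest course. Positions are from GENCODE 29, in which 789 of the 937 row names were found, and promoters from RefSeq, in which all 3 genes were found. Protein sequences were not used here.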

Additional observations from a re-analysis of the deposited data

How the results depend on the processing

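The direction of change of ICAM1, ICAM4 and IL1A was the same under all 14 alternatives run. Scaling moved ICAM1 and IL1A most. TMM factors gave log2 fold changes of 2.10 for ICAM1 and -0.38 for IL1A (standard error 0.25). DESeq2's own size factors gave 2.21 for ICAM1, 4.64 for ICAM4 and -0.26 for IL1A (standard error 0.29). The fall of IL1A was then smaller than its standard error. Limma on log2(FPKM + 1) gave 2.16 for ICAM4, the widest move of that gene, since adding 1 FPKM understates the change of a gene at 0.374 FPKM. Of all genes 398 were called higher and 533 lower. Lower calls numbered 331 under TMM and 278 under the factors of DESeq2, whereas 241 higher genes were called among the 618 with a mean of at least 1 FPKM. With each library left out the log2 fold change was 1.23 to 1.71 for ICAM1, 3.55 to 4.29 for ICAM4 and -1.21 to -0.67 for IL1A, and the ratio of ICAM4 to ICAM1 was 4.46 to 5.95 times as high with ALB in FPKM and 4.52 to 6.02 times in counts. Of the lower genes that NF-κB is known to raise and of those listed for senescent cells, 1 each passed with TMM factors, an alternative chosen after seeing the data. These factors moved the table's median up by 0.61 on the log2 scale, so this cannot show that the lower changes are weaker.

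With the library number as a replicate block the log2 fold changes were 1.46 for ICAM1, 3.78 for ICAM4 and -1.01 for IL1A, with 393 genes called higher and 532 lower. Correlations between the deviations of libraries of the same number were 0.07, 0.01 and -0.19 over 618 genes. Those between libraries of unlike number ran from -0.24 to 0.24. With 3 libraries per group these values cannot show whether the numbers pair the libraries. The depths are estimates from a table of selected genes, the ICAM4 level without ALB rests on fewer than 20 counts per library, and the table cannot show genes that were not called.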
